A study of Mus musculus with 12 samples.

Results

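The 10 genes S1pr1, Ednrb, Ednra, Grm3, Grm5, Adra1a, Adrb1, Ntsr2, Gpr37l1 and Cnr1 encode receptors of astrocytes that respond to lipids, peptides or neurotransmitters other than purines. They were listed by name, matched by symbol to Ensembl mouse identifiers, and all 10 were found among the 27866 genes of the count table of ACSA-2-sorted cells and the 30359 genes of that of CD11b-sorted cells (25442 genes were in both). The libraries came from hippocampi of male C57Bl6/J mice. At 2 months of age, the mice received bilateral CA1 injections of an AAV2/9 vector in which the GfaABC1D promoter, selective for astrocytes, and a WPRE element drove either murine A2AR (AAV-A2A) or GFP (AAV-GFP, the control), and they were studied 2 months later. Astrocytes were retained on magnetic beads by ACSA-2, an astrocyte surface antigen, and CD11b beads were then applied to the cells that had run through. Each of the 4 groups, ACSA-2 AAV-GFP, ACSA-2 AAV-A2A, CD11b AAV-GFP and CD11b AAV-A2A, held 3 libraries, named here by vector and the number in the labels. All mice thus carried an AAV, the whole hippocampus was sorted although CA1 was injected, and the labels do not tie ACSA-2 and CD11b libraries to the same animals.

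These receptors couple to heterotrimeric G proteins. Receptors of the Gq class (Grm5, Adra1a, Ednra, Ednrb and, in part, Ntsr2) raise inositol trisphosphate and release calcium from stores. In astrocytes this release depends largely on the type 2 inositol trisphosphate receptor Itpr2. Gi-coupled receptors (Grm3, Cnr1, S1pr1) lower cyclic AMP, whereas Adrb1 acts through Gs and raises it, the same direction as A2AR itself. Gpr37l1 is an orphan receptor for which prosaposin peptides have been proposed as ligands.

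The comparisons ask whether raising astrocytic A2AR moved the expression of other receptors, in astrocytes and in cells of the CD11b fraction. In ACSA-2 libraries, Adrb1 (beta-1 adrenoceptor) fell 3.23-fold and was the only one of the 10 genes called by edgeR, a call that was lost whenever 1 of the 6 libraries was left out, with upper quartile scaling and with all 12 libraries in 1 fit. S1pr1 (sphingosine-1-phosphate receptor 1) was 1.80-fold lower, with no overlap between groups, and missed the threshold in edgeR, while DESeq2 and limma-voom called it. Ednrb (endothelin receptor B) was 1.43-fold higher, also without overlap, and was not called. The other 7 genes had overlapping groups. Of all genes tested, 10.9% had no overlap with AAV-A2A lower and 8.61% with AAV-A2A higher. In CD11b libraries none of the 9 genes tested was called.

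For these statements, read counts were scaled by TMM and given as CPM, counts relative to library size. Genes were tested with the quasi-likelihood test of edgeR and called at a Benjamini-Hochberg adjusted p below 0.05 over all genes tested together with an absolute log2 fold change (FC) above 0.32. In the text, log2 FC is AAV-A2A minus AAV-GFP unless stated, with its standard error (SE). In these bulk libraries, fewer cells of a type and less RNA per cell cannot be told apart.

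Depth and purity were as follows. Total counts were 33937067 to 49217553 in ACSA-2 libraries and 36098295 to 53206974 in CD11b libraries. The targeted gene Adora2a was at 24.5, 23.0 and 25.1 CPM in AAV-GFP and at 757, 656 and 945 CPM in AAV-A2A ACSA-2 libraries, vector and endogenous transcripts being counted together, and at 3.96, 4.79 and 8.07 against 17.8, 43.3 and 16.3 CPM in CD11b libraries. The 9 astrocyte markers summed to 22519 to 36693 CPM in ACSA-2 libraries and to 274 to 503 CPM in CD11b libraries. Among ACSA-2 libraries A2A-313 had the highest sum, the other 5 reaching at most 26431 CPM, and the lowest ependymal (402 CPM, against 1016 to 1513 CPM), mural (3604 CPM) and erythrocyte (542 CPM) sums. The 8 microglia markers summed to 7470 to 56104 CPM in CD11b libraries. In 3 of these, GFP-2328, GFP-2329 and A2A-2347, 6 choroid plexus markers summed to 76329, 62035 and 31588 CPM, against at most 94.9 CPM in the other 3, and the microglia sums of the same libraries were the 3 lowest (7470, 14867 and 21947 CPM). In CD11b libraries, erythrocyte sums were 865 to 5450 CPM in AAV-GFP and 55.0 to 217 CPM in AAV-A2A. Neuron sums (23.3 to 112 and 4.81 to 10.5 CPM) and ependymal sums (171 to 461 and 33.9 to 162 CPM) did not overlap between vectors either. Other marker sums overlapped. The part of these cells in the CD11b vector comparison and the interaction was not tested.

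The upstream sequences of Adrb1, the gene that was called, and of the endothelin receptor pair, related genes at very different levels, are shown first. Each is the 250 bases before the start site in the promoter table of RefSeq (GRCm38.p6), which held 7 of the 10 genes, and capitals mark the letters TGACG or its reverse complement, the core of the cyclic AMP response element. Adrb1 lies on the plus strand (chr19:56721867-56722116), and Ednrb (chr14:103843702-103843951) and Ednra (chr8:77724453-77724702) lie on the minus strand.
Adrb1: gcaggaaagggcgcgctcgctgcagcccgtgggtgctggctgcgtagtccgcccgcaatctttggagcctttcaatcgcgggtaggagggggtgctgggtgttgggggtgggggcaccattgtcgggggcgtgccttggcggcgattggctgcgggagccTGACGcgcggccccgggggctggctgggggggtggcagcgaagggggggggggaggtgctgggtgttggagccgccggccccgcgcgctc
Ednrb: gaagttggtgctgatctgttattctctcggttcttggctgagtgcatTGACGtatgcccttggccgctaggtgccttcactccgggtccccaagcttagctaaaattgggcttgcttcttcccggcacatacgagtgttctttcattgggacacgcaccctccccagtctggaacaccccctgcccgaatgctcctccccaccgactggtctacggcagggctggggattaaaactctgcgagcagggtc
Ednra: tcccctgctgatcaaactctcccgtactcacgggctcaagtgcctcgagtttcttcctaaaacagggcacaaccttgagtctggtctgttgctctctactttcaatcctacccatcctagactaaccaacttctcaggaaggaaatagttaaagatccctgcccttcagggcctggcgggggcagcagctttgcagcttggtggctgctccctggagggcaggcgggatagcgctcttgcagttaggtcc
The core was found once in the Adrb1 sequence, 90 bases before the start, and once in that of Ednrb, 203 bases before it, and not in the Ednra window. Of the 32851 promoter windows of this length, 17.8% held it, so that a match is common. The full element TGACGTCA was in none of the 7 genes and in 1.55% of all windows. The Adrb1 window was 74% G or C, against 56.8% for Ednrb, 54.8% for Ednra and a median of 52.4% over all windows.

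Levels of different genes were compared as CPM per kilobase of merged exons. In ACSA-2 AAV-GFP libraries, Gpr37l1 was the most abundant of the 10 genes at 1977 ± 278 CPM per kb (SD, n = 3), rank 11 of 27813 genes. S1pr1 (1188 ± 56.2, rank 19) and Ntsr2 (1151 ± 155, rank 23), the low-affinity neurotensin receptor, followed, and their library ranges overlapped. Grm3 (mGluR3) stood at 90.3 ± 17.4 CPM per kb and Ednrb at 55.6 ± 3.57 CPM per kb, each apart from its neighbours. Adrb1 (8.24 ± 1.86) and Ednra (4.90 ± 1.24) came next, with no shared range. By the longest transcript of each gene, their ranges overlapped (7.85 to 11.9 and 6.08 to 9.54 CPM per kb). Adra1a (0.444 ± 0.329), Cnr1 (0.217 ± 0.253) and Grm5 (0.159 ± 0.0800 CPM per kb) were the lowest, and neighbours among these 3 overlapped. Per length, mGluR3 and endothelin receptor B were thus far above their relatives mGluR5 and endothelin receptor A, and the alpha-1A adrenoceptor, the cannabinoid receptor CB1 and mGluR5 ranked 14074, 16173 and 17030 among the 27813 genes.

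**Figure D1:**
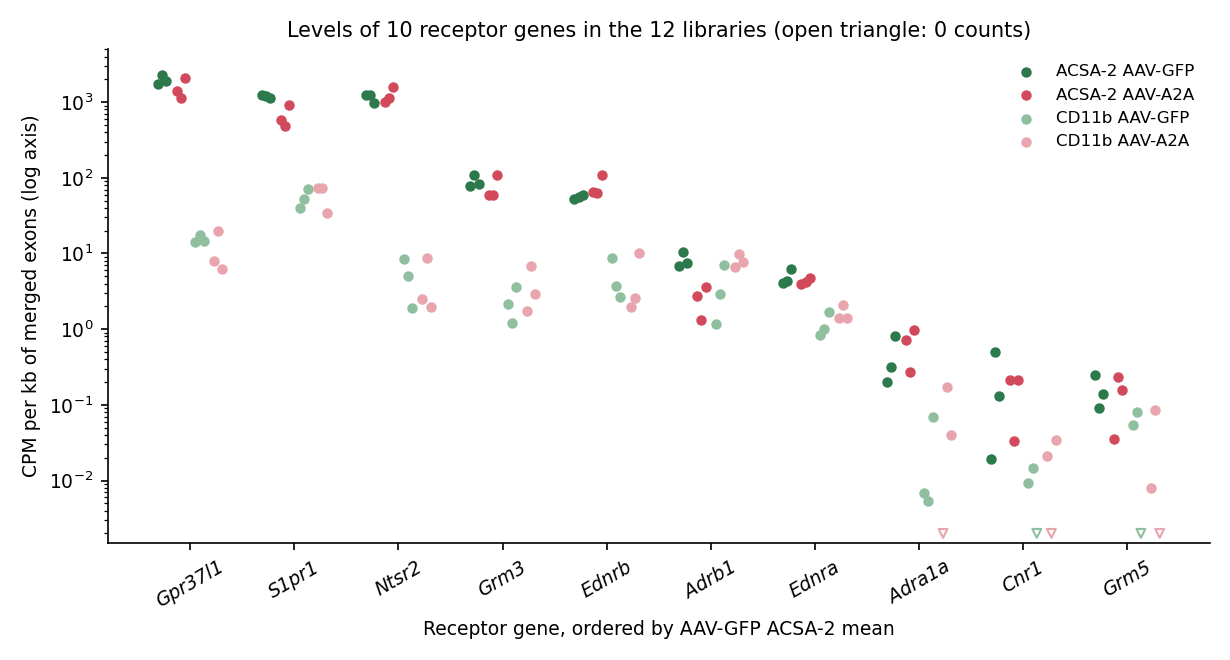
CPM per kb of merged exons (log axis) of the 10 receptor genes in each of the 12 libraries, with genes ordered by their ACSA-2 AAV-GFP mean, 1 point per library and open triangles for libraries with 0 counts. Gpr37l1, S1pr1 and Ntsr2 lie between 489 and 2275 CPM per kb in ACSA-2 libraries, and Adra1a, Cnr1 and Grm5 below 1 CPM per kb.

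Adrb1 (ENSMUSG00000035283, GRCm38 chr19:56722199-56733113, plus strand, 3 merged exons) was at 23.2, 35.0 and 25.4 CPM in the AAV-GFP libraries and at 9.18, 4.52 and 12.2 CPM in the AAV-A2A libraries of the ACSA-2 fraction. Every AAV-A2A library was below every AAV-GFP library, and A2A-310 was the lowest. The means were 27.9 ± 6.30 and 8.63 ± 3.87 CPM (SD, n = 3), with a log2 FC of -1.69 ± 0.38 (SE, 95% CI -2.55 to -0.83) and an edgeR adjusted p of 0.046. Of all genes tested, 3.36% were called, 3.19% as lower and 0.176% as higher, and 10.9% had non-overlapping groups with AAV-A2A lower. The count behind these values was 191 to 1181 reads a library. In none of the 6 fits that left out 1 library was Adrb1 called (log2 FC -2.03 to -1.38, edgeR adjusted p 0.057 to 0.195), nor with upper quartile scaling (adjusted p 0.060) or with all 12 libraries in 1 fit (adjusted p 0.297), while DESeq2 (adjusted p 0.00061, 4.57% of all genes called) and limma-voom (adjusted p 0.030, 3.64% called) called it.

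S1pr1 (ENSMUSG00000045092, chr3:115710433-115715072, minus strand), a receptor better known from endothelium and lymphocytes, was at 3744, 3688 and 3423 CPM in AAV-GFP and at 1780, 1490 and 2775 CPM in AAV-A2A ACSA-2 libraries. The AAV-GFP libraries were nearly alike, and the AAV-A2A libraries were all lower, A2A-313 the least so. The coefficient of variation was 4.73% in AAV-GFP and 33.4% in AAV-A2A. The log2 FC was -0.84 ± 0.23 (95% CI -1.37 to -0.32), and the Benjamini-Hochberg adjusted p was 0.107 (edgeR). Without A2A-313, the library with the highest astrocyte and the lowest ependymal, mural and erythrocyte marker sums, the log2 FC was -1.15 and S1pr1 was called (edgeR adjusted p = 0.013). It was also called by DESeq2 (adjusted p 0.013), by limma-voom (adjusted p 0.046) and by edgeR on genes with 10 or more reads in each of the 6 libraries (adjusted p 0.047).

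Among the 9 astrocyte markers, Aldoc alone held most of the reads, with 23290 CPM of a marker sum of 36693 CPM in A2A-313. Set against the 9 markers, S1pr1 had 142, 147 and 152 reads per 1000 marker reads in AAV-GFP and 77.6, 59.4 and 75.6 in AAV-A2A libraries. On this scale the groups lay further apart and A2A-313 no longer stood out. Adrb1 had 0.877, 1.40 and 1.13 reads per 1000 marker reads in AAV-GFP and 0.3999, 0.1802 and 0.333 in AAV-A2A libraries. Ntsr2 overlapped between vectors on this scale, at 135 to 154 and 134 to 141 reads. Ednrb, whose groups were apart in CPM, overlapped here, at 8.46 to 11.3 reads in AAV-GFP and 10.6 to 12.8 in AAV-A2A. Gpr37l1, whose groups overlapped in CPM, did not overlap here, at 148 to 206 reads in AAV-GFP and 104 to 140 in AAV-A2A. The share of all genes without overlap was not computed on this scale. An edgeR fit scaled to the marker reads, chosen after the values had been seen, called S1pr1 (log2 FC -1.05, adjusted p 0.0070) and Adrb1 (-1.90, adjusted p 0.030). It called 462 of the 16451 genes tested, 455 of them lower and 7 higher. The median log2 FC over all genes was -0.13 in this fit in place of 0.02. None of the 9 markers was called in either fit, and 7 had a positive log2 FC with TMM scaling against 5 with scaling to the marker reads and 4 with TMM scaling without A2A-313.

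Markers of other cells moved with these results in part. Of the endothelial list, Flt1, a VEGF receptor, fell (log2 FC -1.66, edgeR adjusted p 0.0052), the other 7 markers were not called, and the 8 markers, all detected in every library, summed to 499 to 561 CPM in AAV-GFP and 285 to 567 CPM in AAV-A2A. Of the 4 markers of oligodendrocyte precursors, Cspg4 (NG2, also of pericytes) fell (log2 FC -2.17, edgeR adjusted p 0.0023) and Pdgfra was not called, while Gpr17 and Sox10 were at or near 0 and were not tested. The 4 markers summed to 190 to 296 CPM in AAV-GFP and 50.6 to 75.9 CPM in AAV-A2A. Nearly all of this was Cspg4 (means 255 and 56.5 CPM), so the sum repeats its fall. Pdgfra had means of 5.80 and 4.42 CPM (log2 FC -0.39). None of the 8 mural markers was called, but 7 had a negative log2 FC (median -0.33), and their summed level was 4741 to 4877 CPM in AAV-GFP and 3604 to 5074 CPM in AAV-A2A. Single markers with an unadjusted p below 0.05, named after their values were seen and not called, went both ways. Lower were Abcc9 of the mural list (log2 FC -1.18, edgeR adjusted p 0.068), Cdh5 of the endothelial list (-2.62, adjusted p 0.156) and Cx3cr1 of the microglia list (-1.49, adjusted p 0.164). So were Foxj1 of the ependymal list (-1.18, adjusted p 0.126) and Slc17a7 of the neuron list (-2.97, adjusted p 0.303). Higher were Mobp of the oligodendrocyte list (log2 FC 1.43, edgeR adjusted p 0.253) and Ttr of the choroid plexus list (0.59, adjusted p 0.262). The astrocyte markers Aqp4 (0.44, adjusted p 0.279) and Gfap (0.70, adjusted p 0.285) were higher too. These single markers did not always follow their lists. Of the tested neuron markers, 5 had a positive and 2 a negative log2 FC (median 0.19). The choroid plexus list split into 3 and 3 (median -0.13). The medians of the microglia and ependymal lists were both -0.09, and all 5 tested oligodendrocyte markers were positive. The part of such cells in the S1pr1 and Adrb1 values was not tested.

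Ednrb (ENSMUSG00000022122, chr14:103814625-103844402, minus strand) was at 224, 235 and 254 CPM in AAV-GFP and at 280, 266 and 469 CPM in AAV-A2A ACSA-2 libraries. All AAV-A2A libraries were above all AAV-GFP libraries, as for 8.61% of genes tested, and A2A-313 was far above the other libraries. The log2 FC was 0.51 ± 0.23 (95% CI -0.0031 to 1.03, edgeR adjusted p = 0.389), and 0.20 without A2A-313. Its partner Ednra was at 22.04, 23.8 and 34.6 CPM in AAV-GFP and 21.6, 23.3 and 26.1 CPM in AAV-A2A (log2 FC -0.18 ± 0.26, edgeR adjusted p = 0.872). Ednra levels overlapped in part, A2A-309 being the lowest and GFP-307 the highest, and the interval of its difference, -0.76 to 0.40, did not reach a log2 change of 1 in either direction.

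Gpr37l1 had 3912, 5162 and 4380 CPM in AAV-GFP and 3223, 2608 and 4742 CPM in AAV-A2A ACSA-2 libraries. Of the latter, A2A-313 lay within the AAV-GFP range and the other libraries below it (log2 FC -0.35 ± 0.24, edgeR adjusted p = 0.644). Grm3 repeated this layout at a lower level, with 234, 335 and 256 CPM in AAV-GFP and 181, 180 and 331 CPM in AAV-A2A (log2 FC -0.26 ± 0.26, edgeR adjusted p = 0.792). Ntsr2 had 3882, 3862 and 3033 CPM in AAV-GFP and 3111, 3535 and 4925 CPM in AAV-A2A (log2 FC 0.10 ± 0.21, 95% CI -0.38 to 0.58, edgeR adjusted p = 0.925). Its groups overlapped, and the highest value was in A2A-313. That library was the highest of its group for 8 of the 10 genes.

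The 3 genes of low level had widely overlapping groups. Adra1a had 69, 93 and 272 reads in AAV-GFP and 227, 100 and 382 in AAV-A2A ACSA-2 libraries (log2 FC 0.56 ± 0.66, edgeR adjusted p = 0.830). Grm5 had 101, 31 and 55 reads and 13, 100 and 73 reads (log2 FC -0.17 ± 0.91, adjusted p = 0.977), and Cnr1 had 5, 109 and 32 reads and 50, 9 and 62 reads (log2 FC -0.49 ± 1.22, adjusted p = 0.940). With 95% intervals of -2.20 to 1.86 for Grm5 and -3.22 to 2.24 for Cnr1, these counts could not show a log2 difference of 1 for either gene. Over the 10 genes, 3 had a positive and 7 a negative log2 FC, with a median of -0.22 against 0.02 over all genes tested.

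**Figure D2:**
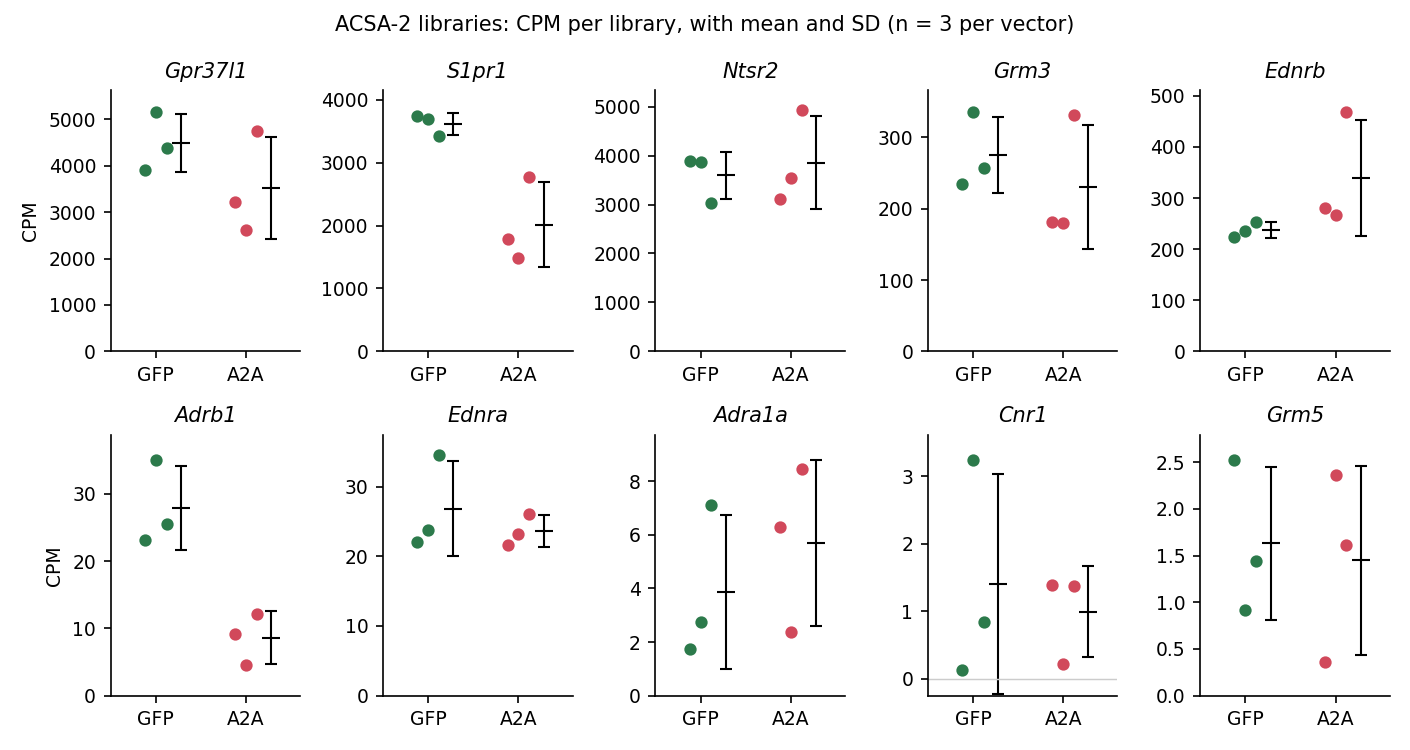
CPM of each receptor gene in the ACSA-2 libraries (1 point per library, GFP for AAV-GFP and A2A for AAV-A2A, each panel on its own linear axis), with the mean and SD of 3 libraries beside the points. Adrb1 and S1pr1 are lower and Ednrb higher in every AAV-A2A library than in every AAV-GFP library, and the other genes overlap.

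In CD11b libraries, Adrb1 was at 4.0, 9.97 and 24 CPM in AAV-GFP and at 22.3, 32.9 and 25.9 CPM in AAV-A2A. The groups overlapped, and the low values were those of GFP-2328 and GFP-2329, the libraries with the lowest microglia and the highest choroid plexus marker sums. A2A-2347, also rich in choroid plexus reads, was not low (25.9 CPM). The log2 FC was 1.09 ± 0.63 (95% CI -0.42 to 2.60, edgeR adjusted p = 0.429), with 0% of genes called in this comparison and 16% (2704 genes) at an unadjusted p below 0.05. DESeq2 called 455 genes (1.5%) and limma-voom 0 (0%), none of them among the receptors. With the 3 choroid plexus-rich libraries left out, a choice made after the values had been seen that leaves 1 AAV-GFP library, the log2 FC of Adrb1 was 0.20 ± 0.77. Per 1000 reads of the microglia markers, Adrb1 had 0.536, 0.671 and 0.466 reads in AAV-GFP and 0.397, 0.711 and 1.18 in AAV-A2A, so that the groups overlapped on this scale too.

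S1pr1 was at 122, 160 and 214 CPM in AAV-GFP and at 226, 225 and 103 CPM in AAV-A2A CD11b libraries (log2 FC 0.16 ± 0.42, edgeR adjusted p = 0.873). The values of both vectors were interleaved, and the lowest were again in choroid plexus-rich libraries. Ednrb ran the other way, with 37.4 CPM in GFP-2328 and 43.1 CPM in A2A-2347 and between 8.31 and 15.9 CPM in the other 4 libraries (log2 FC -0.05 ± 0.75). Ednra (4.57 to 11.3 CPM, log2 FC 0.46 ± 0.45), Grm3 (3.68 to 20.6 CPM, 0.71 ± 0.66), Ntsr2 (5.91 to 27.2 CPM, -0.23 ± 0.76) and Gpr37l1 (14.3 to 44.8 CPM, -0.46 ± 0.47) overlapped between vectors. All 4 had their highest value in A2A-2344, which also had the highest astrocyte marker sum of the CD11b libraries (503 CPM, against at most 408 CPM). Grm5 (0 to 35 reads), Adra1a (0 to 53 reads) and Cnr1 (0 to 12 reads, too few to be tested) were at the edge of detection in this fraction. The part of choroid plexus RNA in these values was not tested beyond leaving out the 3 libraries. Per 1000 astrocyte marker reads, AAV-GFP means were higher in CD11b than in ACSA-2 libraries for S1pr1 (454 against 147) and Ednrb (55.9 against 9.70). So were those of Ednra (17.9 against 1.11), Adrb1 (36.3 against 1.14) and, with overlap, Grm3 (20 against 11.2). Means of Ntsr2 (41 against 145) and Gpr37l1 (94 against 183) were lower in CD11b libraries. The part of astrocyte RNA was not tested beyond these ratios.

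**Figure D3:**
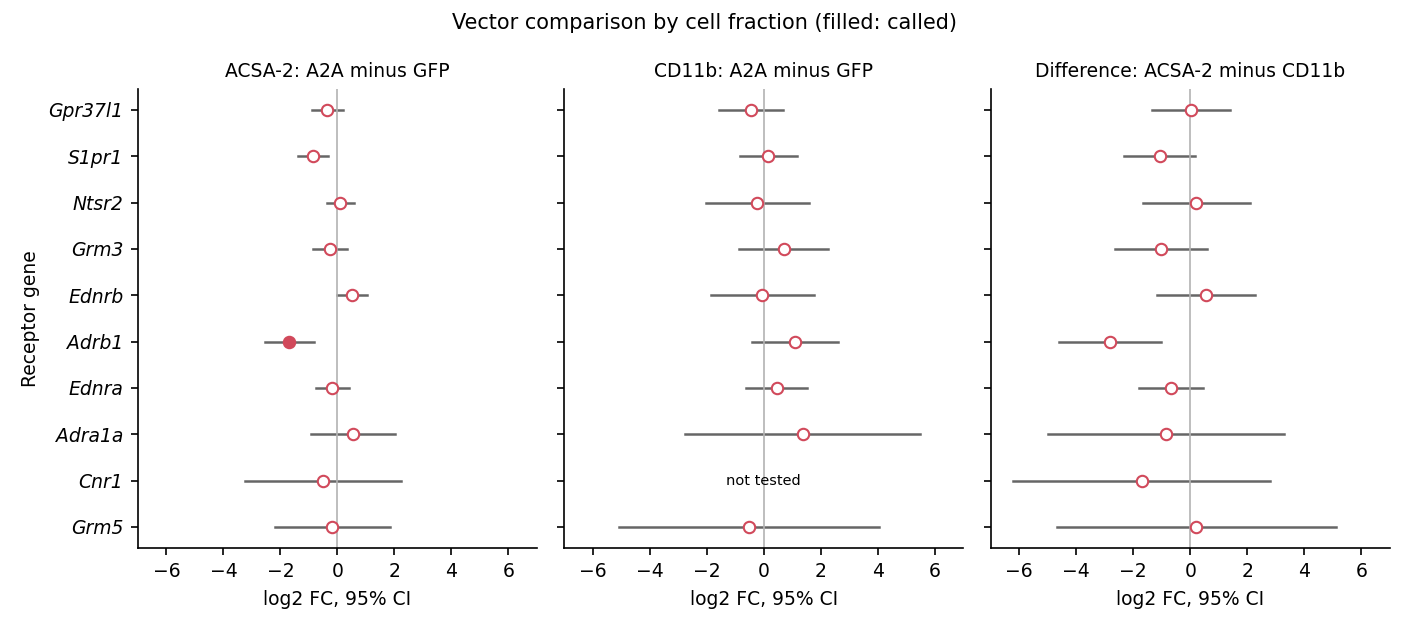
Log2 FC of AAV-A2A over AAV-GFP with 95% CI for each receptor gene in ACSA-2 libraries (left), in CD11b libraries (middle), and the difference between both effects (right), with filled points for called genes. Adrb1 is the filled point at -1.69 in ACSA-2 libraries, and its interval for the difference, -4.61 to -1.02, lies below 0.

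Whether the vector effect differed between fractions was tested as an interaction over all 12 libraries. None of the 10 genes was called, with 0.403% of all genes called and 19.6% at an unadjusted p below 0.05. Adrb1 came nearest, with a difference of -2.82 ± 0.82 on the log2 scale (ACSA-2 minus CD11b effect, 95% CI -4.61 to -1.02, edgeR adjusted p = 0.110). DESeq2 called it (adjusted p 0.024, with 6.73% of all genes called against 0.5% for limma-voom) and so did edgeR without GFP-2331 of the CD11b fraction (-3.73, adjusted p 0.017). Without the 3 choroid plexus-rich libraries the difference was -1.95 ± 0.73 (edgeR adjusted p = 0.393). For S1pr1 the difference was -1.08 ± 0.57 (edgeR adjusted p = 0.323).

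The fractions themselves were compared in AAV-GFP animals, on 1 scale for all 12 libraries. Fraction, sort and sequencing table cannot be told apart in this contrast. Of the 10 genes, 6 were called, all higher in ACSA-2 libraries, where 26.7% of all genes tested were called, 12.3% as higher in ACSA-2. Ntsr2 had the largest difference, 3650 ± 486 against 15.5 ± 9.53 CPM (log2 FC 7.88 ± 0.82, ACSA-2 minus CD11b, edgeR adjusted p = 7.7e-05). Gpr37l1 followed (4555 ± 615 against 34.7 ± 4.29 CPM, log2 FC 7.03 ± 0.57). Both lay above the largest log2 FC of the 9 astrocyte markers, which ranged from 3.39 to 6.98 (Aldoc) and were all called, but Gpr37l1 exceeded Aldoc by less than the SE. Grm3 (5.30 ± 0.62), S1pr1 (4.48 ± 0.46) and Ednrb (3.53 ± 0.61) lay within the range of the markers, and Ednra (2.08 ± 0.38) below it. The 8 mural markers ranged from -2.14 to 2.43 in this contrast (median 1.83, 5 called higher and 1 lower). The 5 ependymal markers ranged from 0.865 to 2.83 (2 called higher). Both ranges hold Ednra, and the part of such cells in its ACSA-2 level was not tested.

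Expressed as the CD11b level in percent of the ACSA-2 level, Ntsr2 was at 0.425% and Gpr37l1 at 0.763%, against 0.791% for Aldoc. S1pr1 was at 4.47%, Ednrb at 8.66% and Ednra at 23.6%, while Aldh1l1 was the astrocyte marker with the highest share, 9.57%. Adrb1 differed from the rest of the list: its CD11b level was 45.0% of the ACSA-2 level (28.3 ± 6.22 against 12.7 ± 10.8 CPM), the groups overlapped, and the log2 FC of 1.15 ± 0.58 was not called (edgeR adjusted p = 0.160). It was called by limma-voom (log2 FC 1.61, adjusted p 0.041, 29.8% of all genes called) and by edgeR without GFP-2331 (2.06, adjusted p 0.018), but not by DESeq2 (26.8% called). Averaged over both vectors it was -0.26, and without the 3 choroid plexus-rich libraries 0.17. Cnr1 (4.74 ± 1.68, adjusted p 0.057), Adra1a (4.02 ± 1.51, adjusted p 0.069) and Grm5 (1.90 ± 1.64, adjusted p 0.417) had AAV-GFP groups that did not overlap, as did 23.9% of genes in that direction, but were not called by edgeR. DESeq2 called Cnr1 and Adra1a. In all 6 ACSA-2 libraries, S1pr1, Ednrb, Ednra, Grm3, Adra1a, Ntsr2 and Gpr37l1 were above all 6 CD11b libraries, an order seen for 15.8% of genes.

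**Figure D4:**
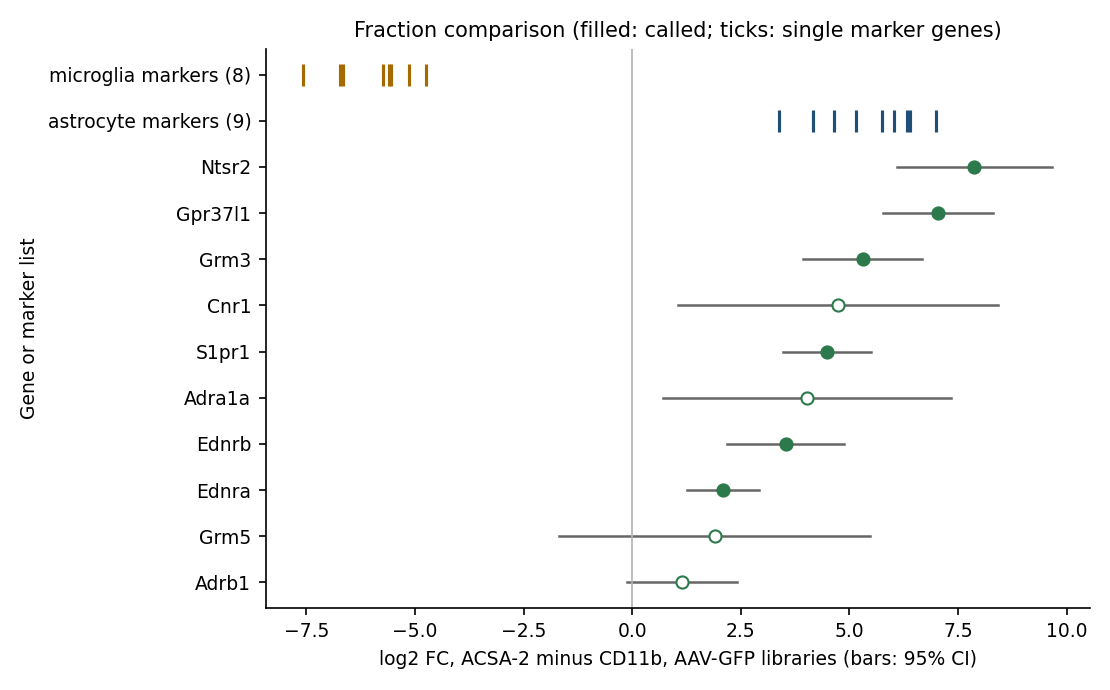
Log2 FC of ACSA-2 over CD11b AAV-GFP libraries with 95% CI for the receptor genes (filled points were called), and ticks for single genes of the astrocyte and microglia marker lists. Ntsr2 (7.88) and Gpr37l1 (7.03) lie beyond the astrocyte markers, and Adrb1 (1.15) is the lowest of the receptors.

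The genes that act with these receptors were followed in the ACSA-2 vector comparison. In the list of G proteins, phospholipases C beta and inositol trisphosphate receptors, 2 of 26 tested genes were called, both lower, where 3.36% of all genes were called and 3.19% as lower. Itpr2, a channel of astrocytes that releases calcium from stores after Gq-coupled receptors act, was at 542, 788 and 730 CPM in AAV-GFP and at 236, 237 and 192 CPM in AAV-A2A. The groups were far apart (log2 FC -1.63 ± 0.20, edgeR adjusted p = 0.0028). Itpr2 was called in each of the 6 fits without 1 library, though not with all 12 libraries in 1 fit (adjusted p 0.210). Plcb1, the phospholipase that makes inositol trisphosphate downstream of Gq, was at 137, 175 and 147 CPM and at 93.1, 49.97 and 64.4 CPM (log2 FC -1.15 ± 0.24, edgeR adjusted p = 0.033), but was called in only 1 of these 6 fits. The most abundant other gene of the list, Gnai2, a Gi subunit, was not called (352 to 408 CPM in AAV-GFP, 406 to 601 CPM in AAV-A2A, edgeR adjusted p = 0.318). The median log2 FC of this list was 0.00.

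Of 27 regulators (RGS proteins, receptor kinases, arrestins and scaffolds), 1 was called, a share near the 3.36% of all genes. Rgs3, which speeds the turn-off of Gi and Gq proteins, was at 174, 95.6 and 113 CPM in AAV-GFP and at 63.9, 35.6 and 26.5 CPM in AAV-A2A (log2 FC -1.60 ± 0.35, edgeR adjusted p = 0.037). Its groups did not overlap, as for 10.9% of genes tested in that direction, and Rgs3 was called in 1 of 6 fits without 1 library. Rgs4 and Rgs20, the most abundant of the list by the mean over all 6 ACSA-2 libraries, were not called (log2 FC 0.09 and 0.15). The list median was 0.06.

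Of the sister receptors, 14 of 20 were tested and none was called by edgeR (3 had an unadjusted p below 0.05, all lower, where 13% of all genes did, 8.7% lower and 4.31% higher). Their median log2 FC was -0.50. The most abundant by the mean over all 6 ACSA-2 libraries were S1pr3 and Gpr37. S1pr3 was at 72.5 to 112 CPM in AAV-GFP and 103 to 106 CPM in AAV-A2A, and Gpr37, the close relative of Gpr37l1, at 84.1 to 131 and 68.8 to 102.3 CPM. Of the genes that make or clear the ligands, 21 of 22 were tested and none was called by edgeR, with 6 at an unadjusted p below 0.05 (2 higher and 4 lower, median log2 FC -0.30). Plpp3, which removes lipid phosphates such as sphingosine-1-phosphate outside the cell, was at 2667, 2866 and 2814 CPM in AAV-GFP and at 3891, 3129 and 5273 CPM in AAV-A2A (log2 FC 0.56 ± 0.21, edgeR adjusted p = 0.271), with no overlap, as for 8.61% of genes tested in that direction. Psap, the precursor of the prosaposin peptides, was at 665 to 1143 and 768 to 1477 CPM and overlapped.

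**Figure D5:**
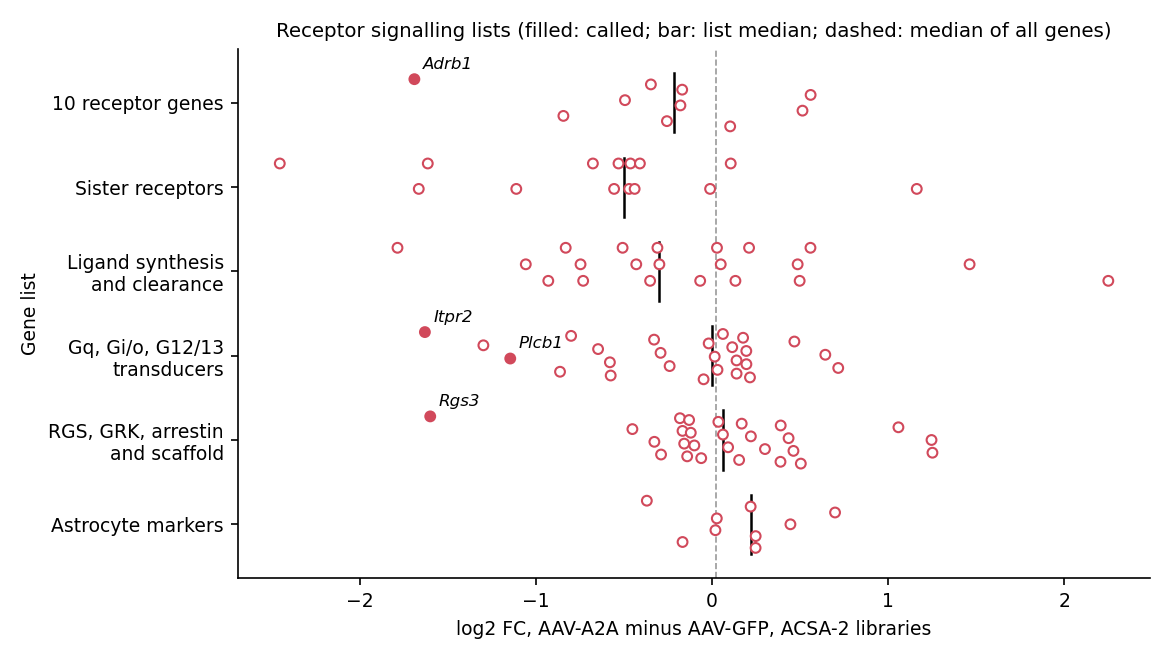
Log2 FC of AAV-A2A over AAV-GFP in ACSA-2 libraries for each tested gene of the receptor list, 4 lists of genes that act with the receptors, and the astrocyte markers. Called genes are filled and named, black bars are list medians and the dashed line is the median of all genes (0.02); Itpr2, Plcb1 and Rgs3 are the called genes beside Adrb1.

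In CD11b libraries no gene of the 4 lists was called by edgeR. At an unadjusted p below 0.05 stood 3 of 15 sister receptors, 6 of 20 ligand genes, 7 of 27 transducers and 5 of 26 regulators, against 16% of all genes. Itpr2 was at 169, 294 and 576 CPM in AAV-GFP and at 474, 255 and 168 CPM in AAV-A2A (log2 FC -0.21 ± 0.59). Its highest values were in GFP-2331 and A2A-2343, libraries with few choroid plexus reads, and the groups overlapped. A2A-2344, also with few such reads, was at 255 CPM, below the choroid plexus-rich GFP-2329 at 294 CPM. The interaction for Itpr2 was -1.48 (edgeR adjusted p = 0.264), short of the threshold.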

How the data were processed

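Polyadenylated RNA of the 12 libraries was amplified with SMART-Seq v4 and Nextera XT and sequenced as single reads. The authors deposited unnormalized counts of reads for each Ensembl gene. They had trimmed the reads with cutadapt 1.10, aligned them to mm10 with STAR 2.5.3 and counted unique, unambiguous reads with HTSeq 0.6.1p1 in union mode (Ensembl 102). The strand setting is not given in the sources used here. Without molecular identifiers, counts include PCR duplicates. Libraries were grouped from the sample labels. For the astrocyte data the study gives 3 animals per group. The sources used here do not state this for CD11b libraries, whose p-values then measure only the spread between these libraries, which may be technical.

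Here, edgeR 4.0.16 (R 4.3.3; TMM, filterByExpr, robust quasi-likelihood fit, Benjamini-Hochberg adjustment) was run on 16451 genes of the 6 ACSA-2 libraries, 16949 of the 6 CD11b libraries and, for the fraction and interaction contrasts, 18602 genes of all 12. The fits were tested on simulated data. Alternatives were DESeq2 1.42.0, limma-voom with limma 3.58.1, different scaling factors and low-count filters, removal of trends on gene length and GC content, and each library left out. Gene names, positions and exon lengths were from GENCODE M21 (GRCm38), which matched 27813 and 30289 identifiers of the 2 tables. On the opposite strand another gene overlapped 1.66% of the exon bases of Ednra. All 10 receptors were named, of the other lists the called genes and the 2 most abundant (of marker lists 1). Receptors and lists were chosen with earlier results of these data known. Figures were drawn with matplotlib 3.10.9.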

Additional observations from a re-analysis of the deposited data

How the results depend on the processing

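Of the 10 receptors in the ACSA-2 vector comparison, 1 (Adrb1) was called by edgeR, and 2 (Adrb1 and S1pr1) by DESeq2, by limma-voom, with at least 10 counts in every library and with scaling to the astrocyte markers, the last chosen after seeing the data. The count was 0 with upper quartile scaling and with all 12 libraries in 1 fit, and 0 to 1 when 1 library was left out, the 1 being S1pr1 without A2A-313. For the difference between fractions the count was 0, but 1 with DESeq2 (Adrb1) and 0 to 1 with 1 library left out (Adrb1, without GFP-2331). By the longest transcript of each gene, 8 of the 10 receptors kept their place in the order of levels, S1pr1 and Ntsr2 changing places. The ranges of Adrb1 and Ednra, apart by merged exons, then overlapped. Counts for the CD11b and fraction comparisons stayed within 1.5 times under the alternatives run.

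None of the values that changed sign was called. In ACSA-2 libraries these were Cnr1 with limma-voom (0.15) and Ntsr2 with scaling to the astrocyte markers (-0.086). In CD11b libraries they were Ednrb with no low-count filter (0.0066), Ntsr2 with length and GC trends removed (0.056), and, without the 3 choroid plexus-rich libraries, Grm5 (7.17) and Ntsr2 (1.57). Adrb1 was at -0.26 in the fraction contrast averaged over both vectors. In the difference between fractions they were Adra1a (0.096) and Gpr37l1 (-0.31) with length and GC trends removed, and Grm5 (-7.48), Adra1a (0.20), Ntsr2 (-1.52) and Gpr37l1 (-0.34) without the 3 libraries. Leaving these out left GFP-2331 as the only CD11b AAV-GFP library, with 0 reads of Grm5, so both Grm5 values are fitted against a single library at 0 and measure no change. The cause of the other changes was not tested. With 1 library left out, log2 FC in ACSA-2 libraries ran from -0.32 to 0.040 for Ednra, -0.72 to 0.29 for Grm5, -0.12 to 0.24 for Ntsr2 and -1.05 to 1.03 for Cnr1. In CD11b libraries it ran from -0.014 to 0.46 for S1pr1, -1.14 to 0.62 for Ednrb, -0.011 to 1.195 for Grm3, -3.49 to 0.19 for Grm5, -0.43 to 3.48 for Adra1a and -1.21 to 0.34 for Ntsr2. The difference between fractions ran from -0.087 to 1.53 for Ednrb, -0.52 to 3.19 for Grm5, -3.01 to 1.02 for Adra1a, -0.32 to 1.24 for Ntsr2 and -0.30 to 0.73 for Gpr37l1.

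No paired analysis was possible because the groups compared share no replicate numbers. Over all genes, edgeR called 553 in ACSA-2 libraries, against 1263 with DESeq2, 156 with all 12 libraries in 1 fit and 272 to 448 with 1 library left out. In CD11b libraries it called 0, and 3 without the 3 choroid plexus-rich libraries, where the lone AAV-GFP library is assumed to vary like the others, against 455 with DESeq2. For the difference between fractions it called 75, against 1695 with DESeq2, 345 with at least 10 counts in every library, 28 with DESeq2 size factors, 0 with upper quartile scaling or with length and GC trends removed, and 0 to 1286 with 1 library left out. For fractions it called 4968, and 10055 averaged over both vectors. Upper quartile scaling moved the median log2 FC of all genes from 0.02 to 0.12 in ACSA-2 libraries, from -0.05 to -0.21 in CD11b libraries and from 0.10 to 0.40 for their difference. Counts of 0 to 53 reads limit Grm5, Adra1a and Cnr1 in CD11b libraries.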
